A study of Mus musculus with 6 samples.

Results

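The genes described here encode 10 enzymes that remove superoxide and peroxides: catalase (Cat), the superoxide dismutases Sod1 and Sod2, the glutathione peroxidases Gpx1, Gpx3 and Gpx4, and the peroxiredoxins Prdx1, Prdx3, Prdx5 and Prdx6. They were taken by symbol from a liver gene table of 34745 rows. Each of the 10 symbols matched 1 row, and all 10 genes passed the filter on low counts, in both groups. The livers came from mice kept on an MCD diet, which lacks methionine and choline and brings on a fatty, inflamed liver, for 6 weeks. The control group carried a floxed Sox9 gene (Sox9f/f, replicates 5, 6 and 8), and the other group was labelled Sox9HKO (replicates 9, 10 and 12), read here as a loss of Sox9. All 6 libraries came from animals on this diet, so the groups differ in genotype and not in diet. The sources used here do not give the cells in which Sox9 was to be lost, the driver of the recombination, or the age and sex of the mice. Nothing in the labels says whether the 3 libraries of a group came from separate animals, so the p-values measure the spread between these libraries.

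Superoxide leaks from the mitochondrial respiratory chain and from oxidases, and dismutases turn it into hydrogen peroxide. Catalase destroys hydrogen peroxide in the peroxisome, where fatty acid and urate oxidases form it. Glutathione peroxidases and peroxiredoxins reduce peroxides elsewhere in the cell, with electrons that come from NADPH through glutathione or thioredoxin. Hepatocytes hold large amounts of these enzymes, since they oxidise fat and foreign compounds, and an inflamed fatty liver is a known setting of oxidative stress. Methionine is also the source of much of the liver's cysteine and so of glutathione.

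The glutathione peroxidases Gpx1, Gpx3 and Gpx4 are selenoproteins, in which a UGA codon that usually ends translation is read as selenocysteine, the residue that reacts with the peroxide. The coding part of the principal transcript (GENCODE M21, GRCm38) of these 3 genes held 1 in-frame TGA each, at the annotated selenocysteine. The other 7 genes held 0. The windows below are shown because this codon sets the selenium-dependent peroxidases apart from the other enzymes. They give 12 bases on either side, on the plus strand, with the selenocysteine codon in capitals.
Gpx1: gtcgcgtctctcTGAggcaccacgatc
Gpx3: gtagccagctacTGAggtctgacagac
Gpx4: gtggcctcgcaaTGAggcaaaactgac
In Gpx1 it is codon 47 of 201, in exon 1 of 2, at chr9:108339451-108339453. In Gpx3 it is codon 73 of 226, in exon 2 of 5, at chr11:54907256-54907258. In Gpx4 it is codon 73 of 197, in exon 3 of 7, at chr10:80054737-80054739. In all 3 genes the codon was followed by a glycine codon that starts with gg.

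The core of the antioxidant response element, the DNA site of the stress factor NRF2, was searched for as TGACNNNGC on both strands of the RefSeq promoters (GRCm38.p6, 250 bases before to 50 bases after each start). For 9 of the 10 genes the table held 12 promoters, and Prdx6 had no entry. The motif was present in 2 of these 12, those of Prdx1 and Sod1, and in 12.4% of all 32851 promoters. These sites are shown because they are the only matches among the genes described, with the motif in capitals as read on the strand of the gene, where it lies in reverse.
Prdx1: cagggaaagcGCTGAGTCAtcccccgtagg
Sod1: gccaaggtggGCGTGGTCAgactcaggcct
The Prdx1 window is chr4:116685456-116685485 and its motif begins 133 bases before the start. The Sod1 window is chr16:90220696-90220725 and its motif begins 56 bases before the start. A match of letters does not show that a factor binds there.

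Total counts lay between 22826962 and 27286864 per library. Sox9 itself stood at 5.31 to 5.80 CPM (counts scaled to library size with TMM factors) in the libraries labelled Sox9f/f and at 15.3 to 22.7 CPM in those labelled Sox9HKO, the opposite of a loss in whole liver. Directions below are therefore between labels. The library of Sox9HKO replicate 12 stood apart from the others of its group. Against replicates 9 and 10 its counts gave a chi-square per degree of freedom of 92.0 and 91.2, against 34.2 to 37.6 for the other pairs within a group. It had 236 of 8398 genes with a mean of at least 10 CPM below 0.5 times the mean of the other 2 libraries of its group, against 59 to 67 genes for each other library. Values that it moves by a large part are given with and without it.

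As a set, the 10 genes differed little between the labelled genotypes. Gpx3, the glutathione peroxidase of blood plasma, had the largest difference at 1.57-fold, and the fold of the other 9 lay between 0.876 and 1.17. None of the 10 passed in edgeR, with a call set at 0.05 on the p adjusted by Benjamini-Hochberg over all 14137 genes tested. At that rule 0% of all genes were called, so this count does not set the 10 apart. At an unadjusted p under 0.05 in edgeR 1 of the 10 remained, Gpx3, against 19.8% of all genes. DESeq2 called 0 of the 10, and 4.28% of all genes (2.31% above and 1.97% below Sox9f/f). The log2 fold change was negative for 8 and positive for 2, Cat and Gpx3. Its median over the 10 was -0.14, against 0.00 over all genes tested. After TMM scaling the groups did not overlap for 3 of the 10, and for 26.5% of all genes. These were Sod1, Sod2 and Gpx4, all lower in the libraries labelled Sox9HKO. In the deposited FPKM, without TMM factors, the groups overlapped for each of these 3. Summed over the 10 genes, the level was 4316 ± 165 CPM (SD, n = 3) in the libraries labelled Sox9f/f and 4289 ± 398 CPM (SD, n = 3) in those labelled Sox9HKO, a difference well within the spread. By library the sums were 4381, 4440 and 4128 CPM in Sox9f/f replicates 5, 6 and 8. They were 4331, 4665 and 3872 CPM in Sox9HKO replicates 9, 10 and 12, so the lower Sox9HKO mean rests on replicate 12.

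**Figure D1:**
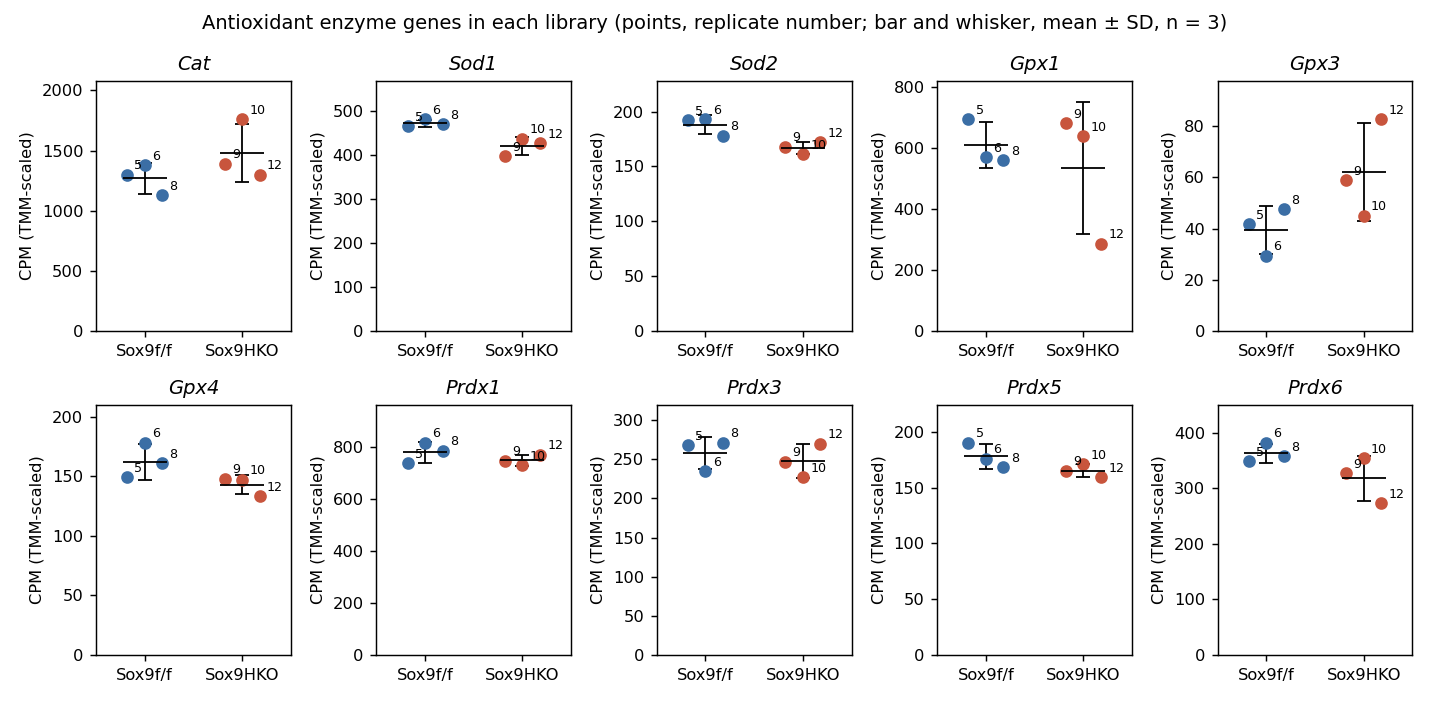
Level of each of the 10 genes in each library, in CPM after TMM scaling on linear axes from 0, with replicate numbers beside the points and a bar and whisker for the mean ± SD (n = 3). The groups overlap except for Sod1, Sod2 and Gpx4, and Gpx1 in Sox9HKO replicate 12 stands at 287 CPM while the other 5 libraries stand between 560 and 694.

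Catalase splits hydrogen peroxide into water and oxygen, and its gene had 1 of the 2 positive differences of the 10. Cat (ENSMUSG00000027187) lies at chr2:103453849-103485160 on the minus strand. It stood at 1300, 1380 and 1130 CPM in Sox9f/f replicates 5, 6 and 8 and at 1390, 1760 and 1300 CPM in Sox9HKO replicates 9, 10 and 12. Replicate 10 was the highest of the 6, while replicate 12 lay within the range of the Sox9f/f libraries. The log2 fold change was 0.22 ± 0.15 (SE; 95% interval -0.13 to 0.58) with an edgeR adjusted p of 0.437. Over all alternatives it ran from 0.09, without Sox9HKO replicate 10, to 0.33, and the adjusted p from 0.247 to 0.816.

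After TMM scaling the dismutases were each slightly lower in all 3 libraries labelled Sox9HKO, and neither passed the test. Sod1, the copper and zinc enzyme of the cytosol, lies at chr16:90220742-90226322 on the plus strand (ENSMUSG00000022982). It stood at 465, 481 and 470 CPM in the Sox9f/f libraries and at 397, 437 and 427 CPM in those labelled Sox9HKO. Sod2, the manganese enzyme of the mitochondrial matrix, lies at chr17:13007839-13018119 on the plus strand (ENSMUSG00000006818). It stood at 192, 193 and 178 CPM in the first group and 168, 161 and 172 CPM in the second. After TMM scaling the groups did not overlap for either gene, in a table where 14.3% of all genes were lower without overlap. In the deposited FPKM, without TMM factors, both overlapped. There Sod1 stood at 691 to 710 against 654 to 695, and Sod2 at 45.3 to 48.2 against 43.1 to 46.7. Sod1 had a log2 fold change of -0.17 ± 0.11 (95% interval -0.41 to 0.08; edgeR adjusted p = 0.403) and Sod2 one of -0.17 ± 0.10 (-0.40 to 0.06; edgeR adjusted p = 0.377).

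The size of the dismutase difference depended on the processing. Scaling by library totals alone, under which the whole table's median moved up by 0.11 (log2), left both at -0.06. Correcting each library for transcript length and GC content put Sod1 at -0.27 and Sod2 at -0.41, with edgeR adjusted p of 0.280 and 0.186. The sign was negative for both under every alternative run. Sod1 overlaps Scaf4 on the opposite strand over 643 bases, though no annotated exons of the pair overlap. Scaf4 had at most 831 counts in any library, against 10185 or more for Sod1. Ccs, the chaperone that loads copper into Sod1, stood at 105 ± 5.30 and 101 ± 9.80 CPM (SD, n = 3), and its groups overlapped. Sod3, the extracellular dismutase, stood at 53.0 ± 8.16 and 61.2 ± 6.01 CPM, also with overlapping groups.

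**Figure D2:**
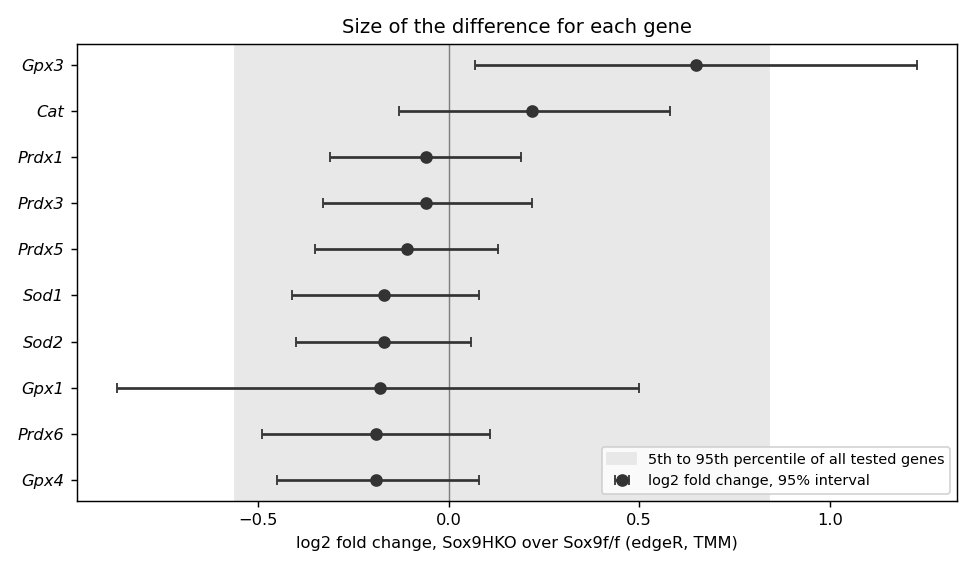
Log2 fold change of each gene, Sox9HKO over Sox9f/f, with its 95% interval from edgeR (n = 3 per group), over a grey band from the 5th to the 95th percentile of all 14137 genes tested (-0.56 to 0.84). All 10 points lie inside the band, and the interval of Gpx1 (-0.87 to 0.50) is the widest.

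Gpx1 and Gpx3 had the widest spread between libraries of the 10 genes, in both groups. Gpx1, the main soluble glutathione peroxidase of liver cells, lies at chr9:108338903-108340343 on the plus strand (ENSMUSG00000063856). It stood at 694, 569 and 560 CPM in Sox9f/f replicates 5, 6 and 8, and at 681, 638 and 287 CPM in Sox9HKO replicates 9, 10 and 12. Replicate 12 held 7898 counts of Gpx1, against 13788 or more in each other library, or 0.435 times the mean of replicates 9 and 10. The other 2 libraries labelled Sox9HKO lay within the range of the Sox9f/f libraries. The log2 fold change was -0.18 ± 0.30 (95% interval -0.87 to 0.50; edgeR adjusted p = 0.757). Without Sox9HKO replicate 12 it turned to 0.11 (edgeR adjusted p = 0.616), so the sign for Gpx1 rests on that 1 library. Library 12 also stands apart over all genes, and the part of that in the Gpx1 value was not tested.

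Gpx3, a secreted enzyme best known from the kidney, lies at chr11:54902453-54910377 on the plus strand (ENSMUSG00000018339). It stood at 41.8, 29.4 and 47.7 CPM in the Sox9f/f libraries and at 59.0, 45.0 and 82.7 CPM in those labelled Sox9HKO. Replicate 12, where Gpx1 was lowest, was the highest for Gpx3, and replicate 10 lay below Sox9f/f replicate 8, so the groups overlapped. The log2 fold change was 0.65 ± 0.25 (95% interval 0.07 to 1.23), with an edgeR unadjusted p of 0.0316, an adjusted p of 0.214 and a DESeq2 adjusted p of 0.131. Over all alternatives the sign stayed positive and the adjusted p lay between 0.131 and 0.428. Without Sox9HKO replicate 12 the log2 fold change was 0.39 (edgeR adjusted p = 0.319), and without Sox9HKO replicate 10 it was 0.84 (0.331).

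Gpx4, which reduces lipid peroxides in membranes and is known for restraining ferroptosis, lies at chr10:80047166-80056439 on the plus strand (ENSMUSG00000075706). It stood at 149, 178 and 161 CPM in the Sox9f/f libraries and at 148, 147 and 133 CPM in those labelled Sox9HKO. The groups did not overlap, but only by a near tie between Sox9f/f replicate 5 and Sox9HKO replicate 9. In the deposited FPKM, without TMM factors, they overlapped (50.8 to 60.4 against 48.7 to 56.1). The log2 fold change was -0.19 ± 0.11 (95% interval -0.45 to 0.08; edgeR adjusted p = 0.386). It was 0.01 once the trend on length and GC content was removed (edgeR adjusted p = 0.984), so no direction is given for Gpx4.

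Prdx1, Prdx3 and Prdx5 had the smallest differences between the labels of the 10 genes. Prdx1, a cytosolic peroxidase that takes electrons from thioredoxin, lies at chr4:116685544-116700822 on the plus strand (ENSMUSG00000028691). It stood at 736, 814 and 784 CPM in the Sox9f/f libraries and at 745, 728 and 768 CPM in those labelled Sox9HKO. All 3 of the latter lay below the 2 highest Sox9f/f libraries, and 1 of them lay below the lowest. The log2 fold change was -0.06 ± 0.11 (95% interval -0.31 to 0.19; edgeR adjusted p = 0.794), an interval that leaves out a difference beyond 0.807-fold or 1.14-fold in the main fit. Prdx3, its mitochondrial relative, lies at chr19:60864051-60874556 on the minus strand (ENSMUSG00000024997). It stood at 268, 235 and 271 CPM and at 247, 227 and 270 CPM, a nearly matching span in both groups (-0.06 ± 0.12; 95% interval -0.33 to 0.22; edgeR adjusted p = 0.819). With library totals alone both genes stood at 0.05, so neither sign held.

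Prdx5, found in mitochondria, peroxisomes and cytosol, lies at chr19:6906697-6910106 on the minus strand (ENSMUSG00000024953). It stood at 190, 176 and 168 CPM in the Sox9f/f libraries and at 165, 171 and 159 CPM in those labelled Sox9HKO, with groups that overlap (-0.11 ± 0.10; 95% interval -0.35 to 0.13; edgeR adjusted p = 0.578). Its sign was lost with library totals alone (0.00) and without the length and GC trend (0.02). Exons of Prdx5 overlap those of Trmt112 on the opposite strand. The sources used here do not say whether the counting used strand, and Trmt112 had at most 364 counts in any library. Prdx6, which has a single reactive cysteine and also phospholipase activity, lies at chr1:161240112-161251219 on the minus strand (ENSMUSG00000026701). It stood at 349, 382 and 358 CPM and at 327, 354 and 273 CPM, lowest in Sox9HKO replicate 12 as Gpx1 was (-0.19 ± 0.13; 95% interval -0.49 to 0.11; edgeR adjusted p = 0.431). Without that replicate it stood at -0.10 (edgeR adjusted p = 0.590).

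**Figure D3:**
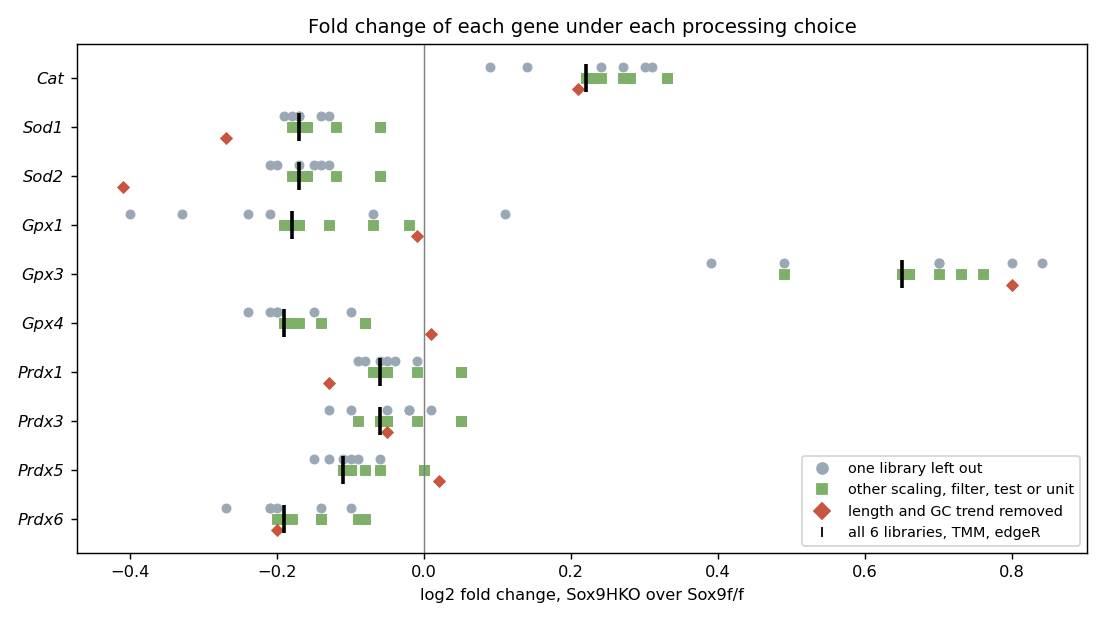
Log2 fold change of each gene, Sox9HKO over Sox9f/f, with all 6 libraries in edgeR (black bar), with 1 library left out (grey circles), under another scaling, filter, test or unit (green squares) and with the length and GC trend removed (red diamonds). Cat and Gpx3 stay right of 0 and Sod1, Sod2 and Prdx6 left of 0 throughout, while Gpx1, Gpx4, Prdx1, Prdx3 and Prdx5 reach or pass 0.

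Within a group most of these genes spread less than 10% around their mean. The coefficient of variation of the 10 had a median of 7.09% in the Sox9f/f libraries and 7.12% in those labelled Sox9HKO. For the 1580 genes with a mean of at least 100 CPM the medians were 8.27% and 12.3%. Sod1 was tightest in the first group (1.70%) and Prdx1 in the second (2.68%). Gpx3 was the widest in the first group (23.6%) and Gpx1 in the second (40.4%).

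Levels were compared between genes only per length, as CPM per kilobase of the principal transcript. In the Sox9f/f libraries Sod1 was highest at 736 ± 12.5, followed by Gpx1 at 567 ± 70.1, Cat at 486 ± 48.7 and Prdx1 at 339 ± 17.2 (SD, n = 3). Gpx1 and Cat overlapped, with ranges of 522 to 648 and 433 to 530. Prdx3 (174 ± 13.6), Gpx4 (169 ± 15.4), Prdx6 (152 ± 7.01) and Prdx5 (141 ± 8.96) came next, and each overlapped its neighbour in this order. Sod2 (32.0 ± 1.47) and Gpx3 (24.9 ± 5.87) were lowest. The value of Sod2 depends on its transcript, since the principal one has 5861 bases and the deposited FPKM used 3824.

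The deposited FPKM gave another order, with another gene length for most of the 10. For 7 of them, and for 67.9% of 14080 genes tested, that length equalled within 0.1% the sum over all distinct annotated exons of GENCODE M21, so that overlapping exons count more than once. For Prdx3 this sum, 1478 bases, is also the length of the principal transcript. The length used for Gpx1 was 3412 bases, although its exons together cover 1441, and for Prdx6 9135 bases, against 4804 covered. Gpx1 thus stood at 171 FPKM in the Sox9f/f libraries, below Cat (390) and Prdx1 (183), while per kilobase of transcript it was above both. This length is the same in every library and cancels in a comparison between groups.

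The remaining dismutases, peroxidases and peroxiredoxins were examined as a list of 8, of which 7 passed the filter. Gpx5, known from the epididymis, had 0 counts in all 6 libraries, which allows up to 0.137 CPM in a library by counting error alone. None of the 7 was called in edgeR or DESeq2, against 0% and 4.28% of all genes. At an unadjusted p under 0.05 in edgeR there were 1 higher and 1 lower, against 9.74% and 10.1% of all genes. Prdx4, the peroxiredoxin of the endoplasmic reticulum, stood at 108, 101 and 108 CPM in the Sox9f/f libraries and at 90.7, 82.8 and 61.2 CPM in those labelled Sox9HKO (log2 fold change -0.43 ± 0.15; edgeR adjusted p = 0.195). Its groups did not overlap, and replicate 12 was the lowest, with -0.29 for the log2 fold change without it. Gpx8, a membrane protein of the same compartment, stood at 0.671 ± 0.299 and 1.58 ± 0.297 CPM (1.23 ± 0.40; edgeR adjusted p = 0.176) and was close to the filter. The groups did not overlap for Gpx8 either, so of the 7 there were 1 higher and 1 lower without overlap, against 12.2% and 14.3% of all genes. Prdx2, the peroxiredoxin known from red cells, stood at 107 ± 7.5 and 109 ± 5.36 CPM. Gpx7 stood at 6.57 ± 1.24 and 7.39 ± 1.38 CPM, Gpx2, the peroxidase of the gut lining, at 1.02 ± 0.766 and 1.51 ± 0.395 CPM, and Gpx6 at 2.76 ± 0.965 and 1.67 ± 1.19 CPM, all 3 with overlapping groups.

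**Figure D4:**
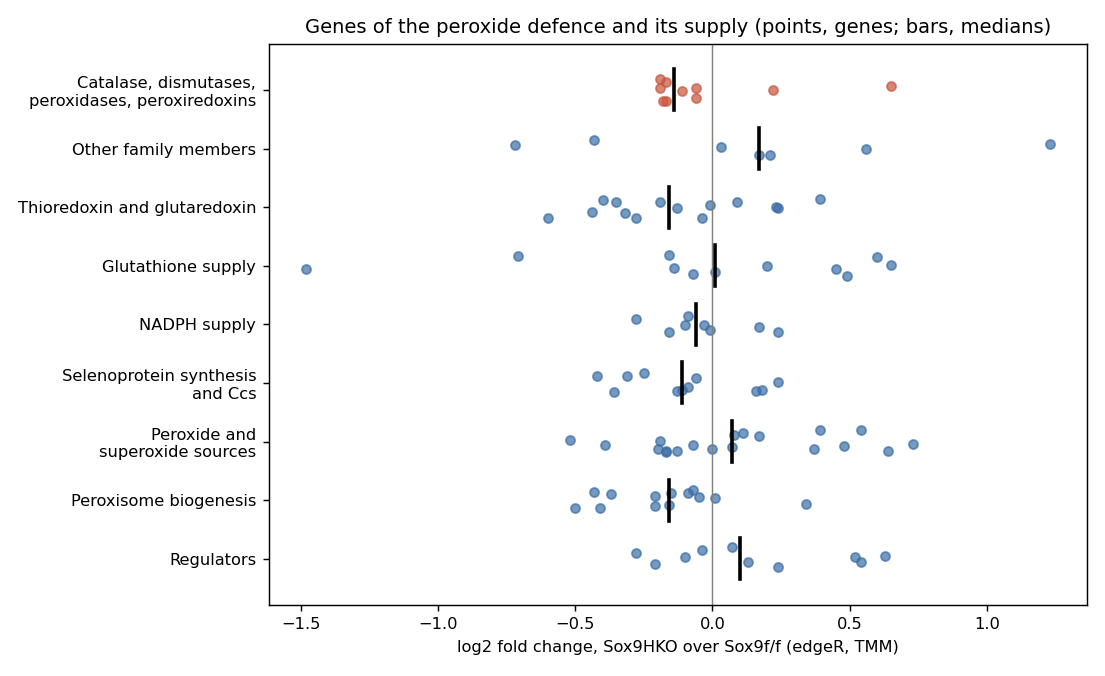
Log2 fold change of each tested gene, Sox9HKO over Sox9f/f (edgeR), for the 10 genes (red) and for 8 lists of related genes (blue), with black bars at the medians. The medians lie between -0.16 and 0.17.

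Glutathione, thioredoxin and NADPH carry the electrons that the peroxidases use. Among 11 genes of glutathione supply and turnover, edgeR called 0, as it did over all genes (0%), and DESeq2 called 1 higher and 2 lower, against 2.31% and 1.97% of all genes. The higher one was Gclc, the catalytic subunit of the enzyme that limits glutathione synthesis, at 301, 274 and 290 CPM in the Sox9f/f libraries and 378, 414 and 523 CPM in those labelled Sox9HKO. All 3 of the latter lay above all 3 of the former (log2 fold change 0.60 ± 0.14; adjusted p = 0.144 in edgeR and 0.0149 in DESeq2). Gclm, its partner subunit and looked at after its values were seen, stood at 86.5, 95 and 92.7 CPM against 165, 134 and 75.6 CPM, high in replicates 9 and 10 and not in replicate 12. The lower ones were Slc3a2, the heavy chain of amino acid transporters that include the cystine carrier, and Chac1, which degrades glutathione. Slc3a2 stood at 129 ± 19.6 and 78.7 ± 19.0 CPM (-0.71 ± 0.19; adjusted p = 0.151 in edgeR and 0.0315 in DESeq2). Chac1 stood at 6.23 ± 3.31 and 2.22 ± 0.332 CPM (-1.48 ± 0.40; 0.151 and 0.0184). Slc7a11, the other chain of the cystine carrier and looked at after its values were seen, went the other way from Slc3a2. It stood at 2.51, 2.19 and 2.39 CPM against 2.8, 5.71 and 2.61 CPM, highest in replicate 10 (0.65 ± 0.33, edgeR adjusted p = 0.319). The median of the list was 0.01.

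The 14 genes of the thioredoxin and glutaredoxin systems had a median of -0.16, with 10 negative. In edgeR and DESeq2 0 were called, against 0% and 4.28% of all genes. Sesn2, a stress-induced sestrin, stood at 30.6 ± 8.95 and 20.2 ± 2.0 CPM (-0.60 ± 0.22; edgeR adjusted p = 0.205). Txnrd2, the mitochondrial thioredoxin reductase that serves Prdx3, stood at 46.2 ± 5.73 and 37.0 ± 3.55 CPM (-0.32 ± 0.13; edgeR adjusted p = 0.239), with groups that did not overlap. The 8 genes of NADPH supply had a median of -0.06, and 0 were called by either tool, against the same shares of all genes. Nadk2, the mitochondrial NAD kinase, stood at 0.24 ± 0.12, and Pgd, a dehydrogenase of the pentose phosphate pathway, at -0.28 ± 0.15, or -0.13 without Sox9f/f replicate 8 (log2 fold changes). The median of this list was 0.03 without Sox9HKO replicate 12.

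Genes that make selenoproteins, together with Ccs, formed a list of 11 with a median of -0.11. Of these 0 were called by edgeR or DESeq2, against 0% and 4.28% of all genes. With 1 library left out the median ran from -0.24, without Sox9HKO replicate 12, to -0.05. Scly, which frees selenium from selenocysteine for reuse, stood at 143, 130 and 142 CPM in the Sox9f/f libraries and at 113, 105 and 106 CPM in those labelled Sox9HKO (-0.36 ± 0.10; edgeR adjusted p = 0.155). Eefsec, the elongation factor that brings selenocysteine to the ribosome, stood at 57.2, 55.7 and 54.4 CPM against 45.4, 46.6 and 43.3 CPM (-0.31 ± 0.10; edgeR adjusted p = 0.170). For both genes all 3 libraries labelled Sox9HKO lay below all 3 labelled Sox9f/f. In the list of 11 the groups did not overlap for 3 lower and 2 higher genes, against 14.3% and 12.2% of all genes.

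The 13 genes of peroxisome biogenesis, which build the organelle that holds catalase, had a median of -0.16, with 11 negative. Of these 0 were called by edgeR or DESeq2, against 0% and 4.28% of all genes. In that list the groups did not overlap for 5 genes, all lower in the libraries labelled Sox9HKO, against 14.3% of all genes. With 1 library left out the median ran from -0.24, without Sox9HKO replicate 12 or Sox9f/f replicate 8, to -0.08, without Sox9HKO replicate 9. It was -0.24 with the length and GC trend removed, and -0.05 with library totals alone and on FPKM. Pex6, a motor ATPase that recycles the import receptor, stood at 118 ± 5.21 and 88.5 ± 11.9 CPM (-0.41 ± 0.13; edgeR adjusted p = 0.166), and Pex2, a membrane ubiquitin ligase of the same cycle, at 53.1 ± 6.17 and 41.2 ± 0.205 CPM (-0.37 ± 0.12; 0.170). Cat itself had a positive sign. The 20 sources of peroxide and superoxide, of which 19 were tested, had a median of 0.07 with 0 called, against the same shares. Cybb, the catalytic subunit of the phagocyte NADPH oxidase, stood at 31.5 ± 10.6 and 52.3 ± 15 CPM (0.73 ± 0.28; edgeR adjusted p = 0.208), with overlapping groups.

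Of 10 regulators of redox genes, edgeR called 0, against 0% of all genes, and DESeq2 called 1 higher, against 2.31%. The called gene was Ppara, the fatty acid sensor that drives peroxisomal oxidation in rodent liver. It stood at 100 ± 17.2 and 155 ± 28.9 CPM (0.63 ± 0.18; adjusted p = 0.156 in edgeR and 0.0466 in DESeq2). Bach1, a repressor at antioxidant response elements, stood at 29.5 ± 4.20 and 42.4 ± 6.62 CPM (0.52 ± 0.16; edgeR adjusted p = 0.160). The regulators had a median of 0.10, and of -0.06 without Sox9f/f replicate 8.

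Liver RNA mixes cell types, so a change in the number of cells of a type and a change in RNA per cell cannot be told apart in these values. Hepatocyte markers, 12 of 12 tested, summed to 120000 to 128000 CPM in the Sox9f/f libraries and to 100000 to 105000 CPM in those labelled Sox9HKO, with a median log2 fold change of -0.26. Most of that sum was Alb, or albumin, at a mean of 76700 and 60400 CPM, so the sums largely follow this 1 gene. Of the 12, 11 were negative and 1 positive, and the groups did not overlap for 5, all lower, against 14.3% of all genes. Neither edgeR nor DESeq2 called any of the 12, against 0% and 4.28% of all genes. Alb stood at -0.35 ± 0.13 and Serpina1c, an antitrypsin, at -0.61 ± 0.20. The 8 ductular markers, Sox9 among them, summed to 59.3 to 76.4 CPM and to 135 to 239 CPM, and 9 stellate cell markers to 402 to 512 CPM and to 614 to 802 CPM. DESeq2 called 4 and 7 of these, all higher, against 2.31% of all genes, and edgeR called 0, against 0%. The ductular surface marker Cd24a stood at 1.21 ± 0.17, and among the stellate genes Lrat, which esterifies retinol, at 0.85 ± 0.13 and the collagen chain Col1a1 at 1.41 ± 0.31.

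Among markers of blood and vessel cells edgeR and DESeq2 called 0, against 0% and 4.28% of all genes. The summed levels overlapped between groups except for neutrophils. Macrophage markers summed to 471 to 731 CPM and to 537 to 1050 CPM, with Cd14 at 0.37 ± 0.15 and Adgre1 at 0.49 ± 0.22, or 0.20 without Sox9HKO replicate 10. Neutrophil markers summed to 7.16 to 13.8 CPM and to 14.6 to 22.8 CPM, with Csf3r at 0.83 ± 0.33. Of the neutrophil markers Ly6g, Retnlg and Mpo were at 0 in at least 1 library. Lymphocyte markers summed to 2.66 to 5.34 CPM and to 4.54 to 7.41 CPM, with a median log2 fold change of 0.51. Cd8a stood at 1.36 ± 0.52 and Cd79a at 1.07 ± 0.60. Both were low, with means of 0.364 and 0.937 CPM for Cd8a and of 0.361 and 0.762 CPM for Cd79a. Endothelial markers summed to 385 to 414 CPM and to 326 to 472 CPM, with Gpr182 at -0.40 ± 0.14 and Lyve1 at 0.57 ± 0.31. Lyve1 stood at 71.7 CPM in Sox9HKO replicate 12 and at 24.3 to 34.8 CPM in the other 5 libraries, and at 0.09 (log2 fold change) without that replicate. Erythroid markers summed to 75.1 to 83.4 CPM and to 55.3 to 98.7 CPM, and Slc4a1 was at 0 in at least 1 library. Hba-a1 and Hba-a2, near-identical copies whose reads the counting may have shared, stood at 0.18 ± 0.52 and 0.17 ± 0.47. The part of these markers in the values of the 10 enzymes was not tested.

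Genes that followed the 3 members of smallest p were looked for by Pearson correlation of log2 CPM over the 6 libraries. From the 8398 genes with a mean of at least 10 CPM, the members and unnamed or predicted gene models were left out. The 6 points share library and depth, and the values are a description with no test. Gpx3 was most like Ltn1, a ubiquitin ligase of ribosome quality control (r = 0.996), the DNA damage kinase Atm (0.993) and Azi2 (0.990). Ltn1 followed the order of Gpx3 on a far smaller scale, from 31.4 to 41.9 CPM. Sod2 was most like Txnl4b (0.995), the selenium-binding protein Selenbp1 (0.992) and Wdr4, a partner of a tRNA methyltransferase (0.991). Gpx4 was most like the nucleolar protein Heatr1 (0.999), Taf5l (0.993) and the cytosolic aconitase Aco1 (0.991).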

How the data were processed

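The authors deposited raw counts per gene and FPKM in the same table, per the file headers, for 3 libraries labelled Sox9f/f and 3 labelled Sox9HKO. The submitters' processing notes list HISAT2 2.0.4, StringTie 1.3.0, mm10 and GRCm38.p4, with no role for any. How reads were counted, and whether by strand, is not stated there. Gene coordinates are those of the table. GENCODE M21 matched 98.6% of identifiers. For Sod1 and Sod2 its gene bounds differ from those of the table.

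The test was edgeR 4.0.16 on counts, under R 4.3.3 (filterByExpr, TMM, robust quasi-likelihood, no covariates). The filter kept 14137 genes, with 99.9% or more of the counts, and left out 20608. Calls used a Benjamini-Hochberg adjusted p under 0.05 over all genes tested. Standard errors and 95% intervals came from the test statistic and its degrees of freedom. Alternatives used DESeq2 1.42.0 (558 genes without an adjusted p), limma 3.58.1 with voom, or on log2(FPKM + 0.5), other scalings and filters, and splines on length and GC with 4 degrees of freedom each. The fits were tested on simulated counts. Figures used matplotlib 3.10.9.

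The genes described and all lists were chosen with earlier results of these data known. Text names the 10 genes, their tested family members, the 2 genes of smallest p in each other list (edgeR called none), Sox9, and the 3 genes most like each of the 3 members of smallest p. Of the named neutrophil genes, Retnlg has libraries at 0 and no fold is given. Chac1, Gclm and Slc7a11, and values for Ccs, were added after values were seen. A few genes that the rule would name are not reported here. Selenop, Ero1a and Ero1b were matched through older symbols. Promoters are RefSeq's, and Prdx6 was not among them.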

Additional observations from a re-analysis of the deposited data

How the results depend on the processing

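No paired analysis was possible because the groups share no replicate numbers. None of the 10 enzyme genes was called under any alternative run: DESeq2, limma voom with sample weights, limma on FPKM, 3 other scalings, 2 other filters, a non-robust fit, the length and GC correction, and each library left out. Over all genes edgeR called 0 in the main setting, 10 without a filter and 0 to 3 with 1 library left out. In DESeq2 the number was 605, and 2800 genes had an edgeR p under 0.05 before adjustment. DESeq2 called 3 glutathione genes, 1 regulator, 4 ductular and 7 stellate genes, and edgeR without a filter called 2 ductular genes.

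The median log2 fold change of the 10 genes, -0.14, stayed negative: -0.09 in voom and with upper-quartile scaling, -0.03 with library totals, on FPKM and with the length and GC trend removed, and -0.16 to -0.08 with 1 library left out. The median over all genes moved too, to 0.11 with library totals, 0.07 on FPKM and 0.05 with upper-quartile scaling. With the length and GC trend removed it was -0.05, so there the 10 genes did not lie below the whole table. Signs turned for Gpx4 (0.01) and Prdx5 (0.02) with the length and GC trend removed. They turned for Prdx1 (0.05), Prdx3 (0.05) and Prdx5 (0.00) with library totals and on FPKM. With 1 library left out, Gpx1 ranged from -0.40 to 0.11, Prdx3 from -0.13 to 0.01, Prdx2 from -0.01 to 0.08, Hba-a1 from -0.42 to 0.62 and Hba-a2 from -0.25 to 0.58. In voom Hba-a1 stood at -0.44 and Hba-a2 at -0.33, and with the length and GC trend removed Ltn1 stood at -0.11. List medians changed sign with 1 library left out for glutathione supply (-0.05 to 0.16), NADPH supply (-0.12 to 0.03), peroxide sources (-0.04 to 0.13), regulators (-0.06 to 0.31), erythroid (-0.42 to 0.50) and endothelial markers (-0.27 to 0.11). The cause was not tested. With 3 libraries a group, the 95% intervals of Cat, Sod1, Sod2, Gpx1, Gpx4, Prdx1, Prdx3, Prdx5 and Prdx6 all included 0. That of Gpx3 (0.07 to 1.23) did not, though Gpx3 was not called.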

Other observations

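The low Gpx1 value of Sox9HKO replicate 12 led to a look at the other selenoprotein genes in that library, chosen after the values were seen and given without a test. Dio1, the deiodinase that activates thyroid hormone in liver, stood at 67.8, 39.2 and 42.9 CPM in the Sox9f/f libraries and at 65.2, 78.1 and 6.65 CPM in Sox9HKO replicates 9, 10 and 12. Replicate 12 was thus at 0.0927 times the mean of replicates 9 and 10 for Dio1, and at 0.435 times for Gpx1. For the other selenoprotein genes looked at, the ratio ran from 0.660 for Gpx2, a gene near the filter, and 0.696 for Selenom to 1.59 for Gpx3, with 0.987 for Txnrd1, 0.906 for Gpx4 and 0.882 for Msrb1. Selenop, the selenium carrier that liver secretes (listed as Sepp1), stood at 7380 CPM in replicate 12, the highest of the 6 libraries, with 6540 and 6630 CPM in replicates 9 and 10 and 5190 to 6180 CPM in the Sox9f/f libraries. Sephs2, a selenoprotein that makes the selenium donor, was also highest there at 808 CPM, against 571 and 630 CPM in replicates 9 and 10.

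A calendar date stood in place of the gene symbol in 27 rows as deposited. One of them is the selenoprotein gene Selenof, once called Sep15, which was found by its Ensembl identifier and stood at 199, 166 and 218 CPM in the Sox9f/f libraries and 208, 168 and 143 CPM in those labelled Sox9HKO. A search of the table by symbol alone misses such rows.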
